A study of Mus musculus with 16 samples.

Results

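To examine the machinery that licenses entry into the cell cycle in early blood progenitors, the transcripts of 10 genes were followed in MPP3 and MPP4 cells of mice labelled WT or KO for Ebf1. The genes were the D-type cyclins (Ccnd1, Ccnd2 and Ccnd3), their kinase partners (Cdk4 and Cdk6), the inhibitors of the CIP/KIP family (Cdkn1a, Cdkn1b and Cdkn1c) and the inhibitors of the INK4 family with measurable counts (Cdkn2c and Cdkn2d). They were chosen by name from 47937 gene identifiers, and Cdkn2a and Cdkn2b were left out for their low counts. All 10 passed the filter on low counts (more than 100 counts on average in at least 1 group), as did 11831 identifiers in all.

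Cyclins of the D type are made when growth factor signals reach a cell. They bind CDK4 or CDK6, and the active complexes phosphorylate the retinoblastoma protein, which then lets go of E2F transcription factors and so opens the way to DNA synthesis. INK4 proteins bind CDK4 and CDK6 and keep D cyclins away. CIP/KIP proteins bind cyclin-CDK complexes more broadly, and block CDK2 above all. In blood stem and progenitor cells this balance sets how readily a cell leaves quiescence.

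The cells were sorted from bone marrow of C57BL/6 mice (C57BL/6J in the study's methods) as lineage-depleted cells positive for Sca-1 and Kit. The MPP3 gate took the CD150-CD48+ fraction and the MPP4 gate the CD150-CD48+Flt3+ fraction, and MPP3 leans toward myeloid and MPP4 toward lymphoid fates. Each of the 4 combinations of population and genotype had 4 libraries of polyA RNA, with 24823708 to 48703193 counts. By the sample labels, all mice carried floxed Ebf1 alleles (Ebf1fl/fl), the mice labelled WT lacked the Cre allele (Tie2Cre+/+), and the mice labelled KO carried it (Tie2Cre+/cre). The series description instead gives both groups Tie2Cre and unfloxed Ebf1 to the WT group, and the counts used here do not settle which holds. The Tie2 (Tek) promoter drives Cre in endothelial and blood-forming cells from early development, so the deletion is not limited to progenitors. WT mice 1 to 4 were 12, 11, 12 and 11 weeks old and KO mice 10, 9, 11 and 11 weeks old, with 2 females and 2 males in each genotype. Libraries of MPP3 and MPP4 with the same genotype and number shared sex and age and deviated from their group means together. They are called pairs below, although the labels do not say whether they came from the same mouse. The main fit did not use the pairs. They entered only the values by pair and the fits with the pairs as a block.

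The targeted gene was read first. Ebf1 encodes a factor that specifies B cells, and its normalised level (counts scaled to the library size, CPM) was 4.51 ± 1.21 in MPP4 WT and 21.0 ± 3.72 in MPP4 KO (SD, n = 4 here and throughout). The groups did not overlap, and the library label thus goes against the count in MPP4, although the difference was not called in the fit of all 16 libraries (log2 fold change 2.22 ± 0.64 SE, edgeR quasi-likelihood FDR 0.188). Fitted on the MPP4 libraries alone, Ebf1 was called higher in KO (edgeR FDR 0.00468), the only 1 of 25 alternatives that called it. In MPP3 the level was 1.31 ± 0.989 CPM in WT and 0.795 ± 0.977 CPM in KO. Counts of a whole gene do not show whether a deleted exon is missing, so WT and KO below name the libraries by their labels. Flt3, which encodes the receptor that separates the gates, was at 281 ± 25.3 CPM in MPP3 WT and 1229 ± 92.1 CPM in MPP4 WT, and at 247 ± 37.0 and 1009 ± 64.4 CPM in the KO libraries.

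The 10 genes spanned a wide range of levels, which can be compared between genes only per length. In MPP3 WT, Cdk4 stood first at 245 ± 12.7 CPM per kilobase of exon, followed by Cdk6 at 77.9 ± 12.2, Ccnd2 at 53.6 ± 6.51 and Cdkn2d at 48.8 ± 2.05. Ccnd3 followed at 31.8 ± 6.60 CPM per kilobase. The ranges of Ccnd2 and Cdkn2d overlapped, so their order was not resolved. Cdkn1a at 10.2 ± 4.55, Cdkn2c at 9.95 ± 5.01 and Ccnd1 at 7.13 ± 0.470 CPM per kilobase formed a group with overlapping neighbours. Cdkn1b at 3.17 ± 0.518 and Cdkn1c at 1.24 ± 0.459 CPM per kilobase came last. Both kinases thus stood above every inhibitor per length in all 4 groups, by their means.

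The order was alike in the other groups except at 2 places. Ccnd2 stood above Cdk6 in MPP4 (69.1 ± 9.25 against 56.7 ± 3.05 CPM per kilobase in WT, with overlapping ranges, and 83.1 ± 4.41 against 64.1 ± 9.44 in KO, without overlap), while Cdk6 stood above Ccnd2 in both MPP3 groups without overlap. Ccnd1 stood above Cdkn2c by its mean in MPP4 and below it in MPP3, with overlapping ranges throughout. With the longest transcript in place of the union of exons as the length, Ccnd3 stood above Cdkn2d in all 4 groups and Ccnd1 above Cdkn2c in MPP3 KO.

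**Figure D1:**
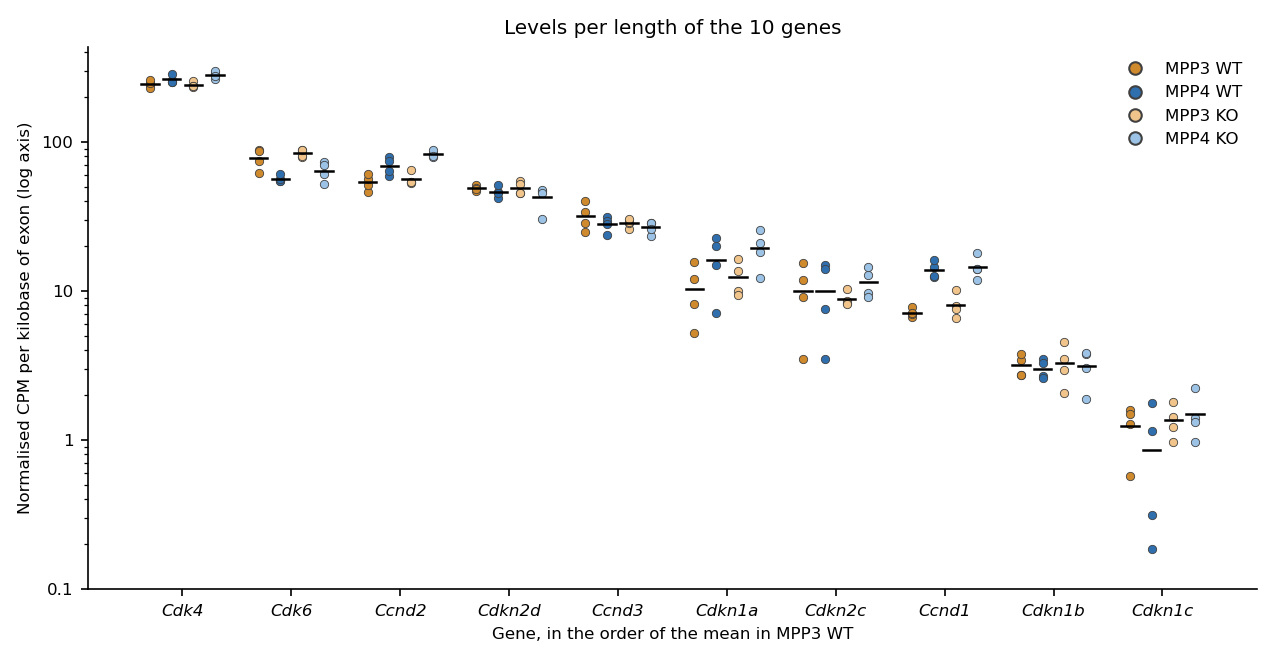
Levels of the 10 genes per kilobase of annotated exon on a log axis; each point is a library, colours give the 4 groups and black bars their means. Cdk4 sits highest in every group (245 CPM per kilobase in MPP3 WT) and Cdkn1c lowest (1.24), and Ccnd2 and Cdk6 change places between MPP3 and MPP4.

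The D cyclins were compared first between the populations. Ccnd1 and Ccnd2 were lower in MPP3 than in MPP4 in both genotypes, Ccnd1 about 1.94-fold in WT and 1.80-fold in KO, Ccnd2 1.29-fold and 1.47-fold. Ccnd3 was slightly higher in MPP3 in each of the 8 pairs and was not called without the pairing. Of the 10 genes, 3 were called in WT (2 lower and 1 higher in MPP3) at a Benjamini-Hochberg FDR under 0.1, where 15.1% of all genes tested were called (8.33% lower and 6.8% higher). In KO 4 were called (3 lower and 1 higher), where 17.9% of all genes tested were called (9.18% lower and 8.71% higher).

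Cyclin D1, encoded by Ccnd1 (ENSMUSG00000070348, chr7:144929931-144939925 of GRCm38, minus strand), couples adhesion and growth factor signals to the cycle. Its level was 36.6, 31.3, 33.0 and 33.3 CPM in MPP3 WT libraries 1 to 4, and 58.1, 67.8, 58.9 and 75.8 CPM in the paired MPP4 WT libraries. In KO it was 37.2, 47.6, 35.4 and 30.8 CPM in MPP3, and 65.9, 83.9, 66.2 and 55.3 CPM in MPP4. No MPP3 library reached the lowest MPP4 library, in either genotype. The log2 fold change of MPP3 over MPP4 was -0.96 ± 0.14 in WT (edgeR quasi-likelihood FDR 0.000171) and -0.85 ± 0.14 in KO (FDR 0.000481). Leaving out any library kept it between -1.01 and -0.88 in WT and between -0.97 and -0.73 in KO. Ccnd1 shares 1100 bases of exon with LTO1 on the other strand, and the use of strand in counting is not stated. LTO1 was at 33.6 ± 5.82 CPM in MPP3 WT and 34.0 ± 3.07 CPM in MPP4 WT, and at 31.9 ± 3.304 and 31.1 ± 2.82 CPM in KO, and its part in the counts of Ccnd1 was not tested.

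Cyclin D2, encoded by Ccnd2 (ENSMUSG00000000184, chr6:127125162-127152193, minus strand), is the D cyclin of lymphocytes and many blood progenitors. Its level was 430.3, 484, 528 and 574 CPM in MPP3 WT and 556, 743, 601 and 703 CPM in MPP4 WT. These groups overlapped at their edges, although MPP4 was higher in all 4 pairs. In KO it was 494, 612, 507 and 509 CPM in MPP3 and 794, 834, 739.6 and 759 CPM in MPP4, without overlap. Ccnd2 had a log2 fold change of -0.37 ± 0.10 in WT (FDR 0.0245, edgeR quasi-likelihood) and -0.56 ± 0.10 in KO (FDR 0.000988). The difference between these effects was -0.19 ± 0.14 with a 95% interval of -0.49 to 0.11 (interaction FDR 1.00, edgeR), so the larger value in KO was not shown to differ from that in WT.

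Cyclin D3, encoded by Ccnd3 (ENSMUSG00000034165, chr17:47505051-47599691, plus strand), serves proliferating precursors of B cells, T cells and red cells. Its level was 352, 296, 219 and 250.4 CPM in MPP3 WT and 273, 259, 209 and 247 CPM in MPP4 WT. The KO libraries had 229, 252, 254 and 265 CPM in MPP3 and 204, 250.4, 252 and 228 CPM in MPP4. The groups overlapped in both genotypes, and library 1 of MPP3 WT stood above all others. Ccnd3 had a log2 fold change of 0.18 ± 0.12 in WT (edgeR FDR 0.450) and 0.10 ± 0.12 in KO (edgeR FDR 0.702). With the pairs as a block, Ccnd3 was called in WT (0.16 ± 0.06, edgeR FDR 0.0849) and not in KO (0.10 ± 0.06, edgeR FDR 0.275). In the unpaired fit Ccnd3 in WT was at 0.05 (edgeR FDR 0.866) without MPP3 WT library 1 and at 0.11 (edgeR FDR 0.651) without both libraries numbered WT 1. Ccnd3 shares 361 bases of exon with Bysl on the other strand, which was at 54.1 ± 5.06 CPM in MPP3 WT and 47.8 ± 8.02 CPM in MPP4 WT. Bysl was higher in MPP3 in all 4 WT pairs and was not called (0.19 ± 0.08 with the block, edgeR FDR 0.141).

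The summed level of the family was 92.5 ± 3.55 CPM per kilobase in MPP3 WT and 111 ± 11.4 in MPP4 WT, and 92.9 ± 7.54 and 124 ± 7.42 CPM per kilobase in KO. Ccnd1 made up 7.71% ± 0.514 of that sum in MPP3 WT and 12.4% ± 0.793 in MPP4 WT, and 8.597% ± 1.09 and 11.5% ± 1.34 in KO. The share of Ccnd3 was 34.3% ± 6.77 in MPP3 WT and 25.4% ± 3.30 in MPP4 WT, with overlapping ranges, and 30.8% ± 2.44 and 21.5% ± 1.87 in KO, without overlap. A share also falls when the other cyclins rise, and the level of Ccnd3 itself was not called in the unpaired fit. Ccnd2 held the largest share in every group, between 57.9% and 67.0% by the means. These shares are descriptions and were not tested.

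**Figure D2:**
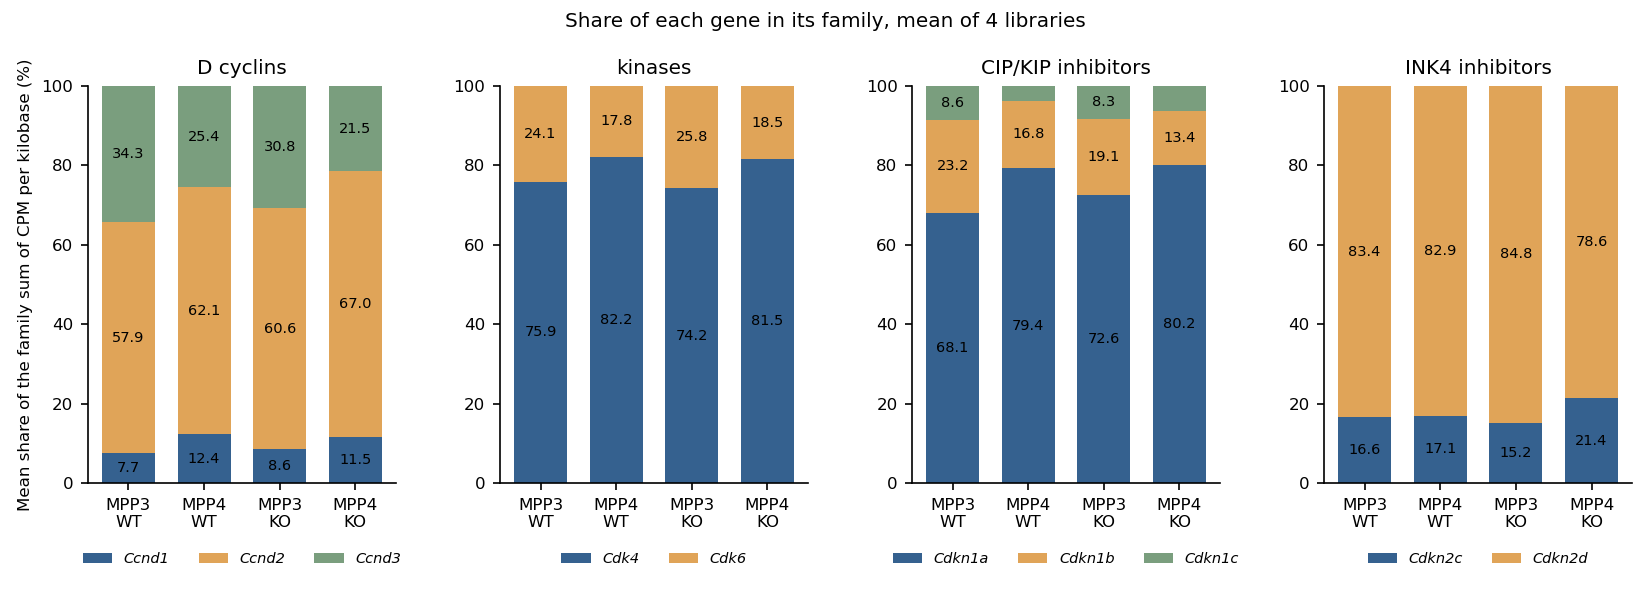
Mean share in percent of each gene in the summed CPM per kilobase of its family, in 4 groups of 4 libraries; the families are the D cyclins, CDK4 and CDK6, the CIP/KIP inhibitors and the INK4 inhibitors. Ccnd1 takes a larger share of the D cyclins in MPP4 (12.4% in WT) than in MPP3 (7.71%), and Cdk6 a larger share of the kinases in MPP3 (24.1% in WT) than in MPP4 (17.8%).

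The kinases moved apart between the populations. Cdk6 was higher in MPP3 in both genotypes, 1.37-fold in WT and 1.30-fold in KO. Cdk4 was lower in MPP3 in all 8 pairs, by a smaller amount that was called in KO and not in WT. Since in bulk samples fewer cells of a type and less RNA per cell cannot be told apart, a difference here can be either.

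CDK6 (Cdk6, ENSMUSG00000040274, chr5:3341485-3531008, plus strand) is the partner of D cyclins that in blood stem and progenitor cells also acts at chromatin. Its level was 869, 1041, 1239 and 1208 CPM in MPP3 WT and 764, 767, 784 and 855 CPM in MPP4 WT. Among KO libraries it was 1223, 1098, 1125 and 1227 CPM in MPP3 and 1029, 857, 731 and 973 CPM in MPP4. Every MPP3 library stood above every MPP4 library of the same genotype, although library 1 of MPP3 WT came close to the highest MPP4 WT library. For Cdk6 the log2 fold change was 0.46 ± 0.11 in WT (edgeR quasi-likelihood FDR 0.00905) and 0.38 ± 0.11 in KO (FDR 0.0255). Without both libraries numbered WT 1 it was 0.54 in WT (edgeR FDR 0.00483). Cdk6 shares 368 bases of exon with Gm17590 on the other strand, which was at 7.28 ± 1.93 CPM in MPP3 WT and 4.43 ± 1.24 CPM in MPP4 WT, and which was also higher in MPP3 in KO (log2 fold change 1.13 ± 0.37, edgeR FDR 0.0550), with overlapping groups. That call of Gm17590 was lost under 4 of 25 alternatives, 3 of them fits that left out a library (highest edgeR FDR 0.190).

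CDK4 (Cdk4, ENSMUSG00000006728, chr10:127063534-127067920, plus strand) is the partner of D cyclins in most tissues. Its level was 780.4, 748, 807 and 845 CPM in MPP3 WT and 821, 843, 822 and 920.2 CPM in MPP4 WT. In KO it was 758, 833, 767 and 773 CPM in MPP3 and 940.1, 970.0, 857 and 896 CPM in MPP4. The WT groups overlapped and the KO groups did not. For Cdk4 the log2 fold change was -0.10 ± 0.06 in WT (edgeR FDR 0.347) and -0.23 ± 0.06 in KO (edgeR quasi-likelihood FDR 0.0128), and the difference between them was -0.13 ± 0.08 (95% interval -0.30 to 0.04, edgeR FDR 1.00). Cdk4 also varied little among replicates: its SD within groups was 0.0733 on the log2 scale, and 2.16% of the genes tested had a smaller SD, with a median of 0.205. Cdk4 shares 641 bases of exon with Tspan31, whose level was 106 ± 4.82 CPM in MPP3 WT and 102 ± 5.27 CPM in MPP4 WT. In KO, where Cdk4 was called, Tspan31 was at 116 ± 9.78 and 120.2 ± 5.51 CPM, with MPP3 below MPP4 in all 4 pairs (log2 fold change -0.05 ± 0.07, edgeR FDR 0.749).

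As a share of both kinases per length, Cdk6 took 24.1% ± 2.46 in MPP3 WT and 17.8% ± 0.289 in MPP4 WT, and 25.8% ± 1.74 and 18.5% ± 1.99 in KO. The ranges did not overlap in either genotype (20.6% to 26.3% against 17.4% to 18.1% in WT). The sum of both kinases was 323 ± 22.4 CPM per kilobase in MPP3 WT and 319 ± 17.3 in MPP4 WT, and 324 ± 7.92 and 346 ± 21.4 in KO.

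For reference, the stretches just upstream of the starts of both kinases are shown side by side, and their part in the levels was not tested. RefSeq promoter entries (GRCm38.p6) were found for 7 of the 10 genes, and not for Ccnd1, Ccnd2 and Cdkn1c. The 250 bases before each start were searched for the E-box CACGTG, which reads the same on both strands and is bound by MYC and related factors, and for a p53-type motif CATGNNNNNNCATG, which also reads the same on both strands. The motifs cannot overlap in these stretches, where no site holds both. The E-box was found in 1978 of 32851 promoters (6.02%), and 4 or more copies in 7 (0.0213%). Cdk4 held 4 copies, whose first bases lie 172, 118, 98 and 11 bases before the start, and Cdk6 held 1 copy, 220 bases before. The other 5 genes held none. The stretch of Cdk4 is chr10:127063285-127063534 and that of Cdk6 is chr5:3343643-3343892, both on the plus strand, written 5′ to 3′ with the E-boxes in capitals. A match is a run of letters and not evidence of binding.
Cdk4: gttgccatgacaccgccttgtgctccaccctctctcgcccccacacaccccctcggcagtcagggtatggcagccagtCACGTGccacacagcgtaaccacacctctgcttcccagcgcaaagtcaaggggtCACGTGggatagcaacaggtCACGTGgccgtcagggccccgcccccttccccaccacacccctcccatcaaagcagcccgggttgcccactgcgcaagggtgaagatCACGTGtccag
Cdk6: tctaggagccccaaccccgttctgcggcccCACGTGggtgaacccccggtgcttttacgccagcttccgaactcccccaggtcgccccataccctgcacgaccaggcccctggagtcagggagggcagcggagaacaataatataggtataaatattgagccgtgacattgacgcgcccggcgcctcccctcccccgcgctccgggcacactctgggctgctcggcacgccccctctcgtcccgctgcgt

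**Figure D3:**
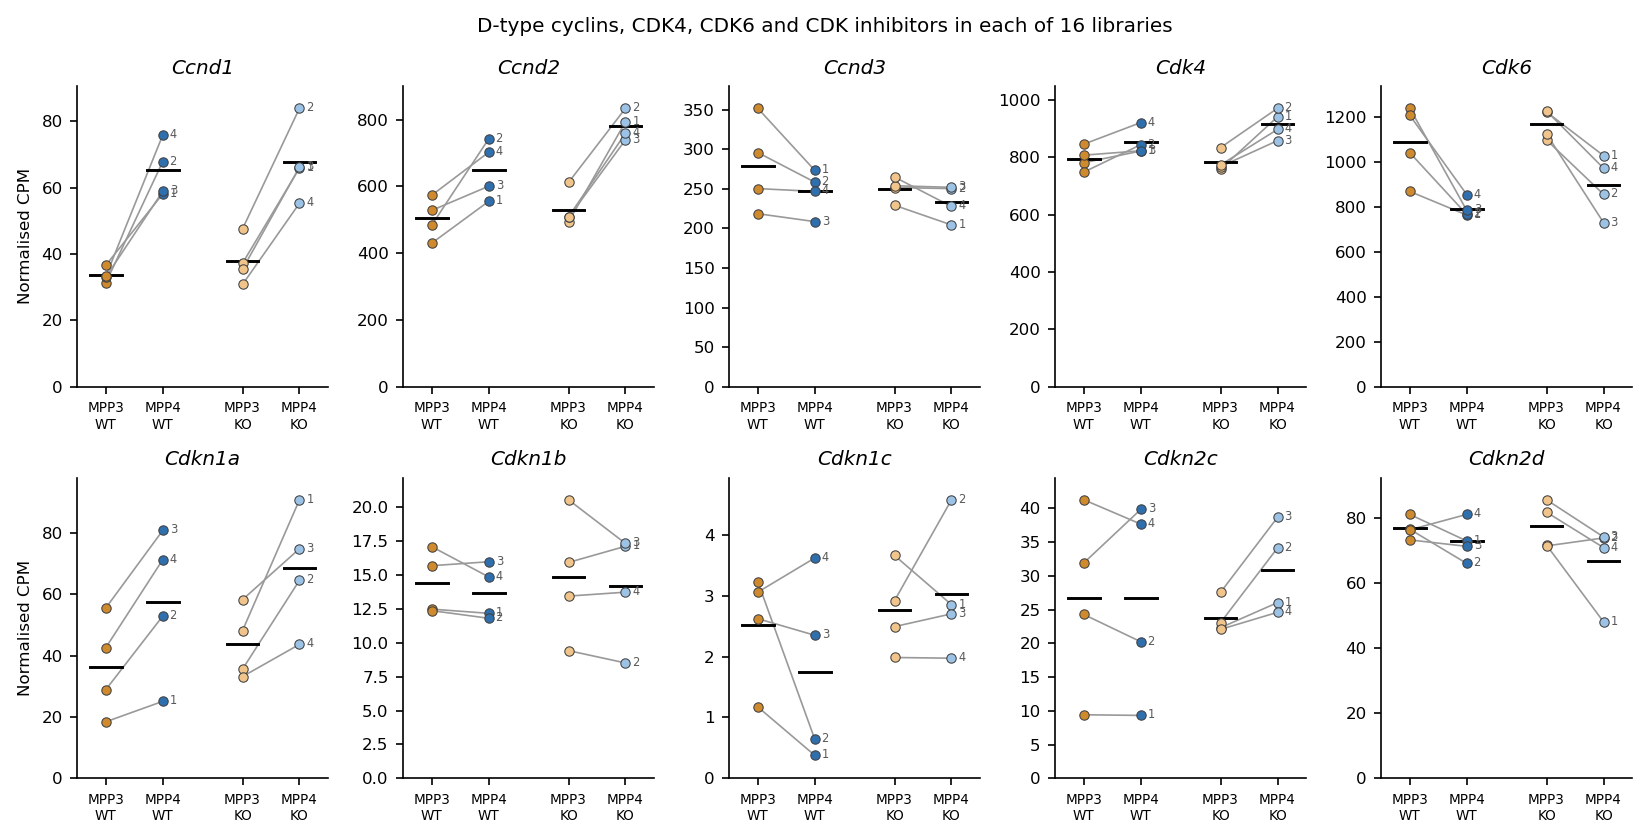
Normalised CPM of each gene in the 16 libraries, on axes that start at 0; grey lines join the MPP3 and MPP4 libraries of the same genotype and number, numbers beside the points name the replicates and black bars are group means. All 8 lines rise from MPP3 to MPP4 for Ccnd1, Ccnd2, Cdk4 and Cdkn1a and fall for Ccnd3 and Cdk6.

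Among the CIP/KIP inhibitors, Cdkn1a was the most abundant and differed between the populations in the same direction in all 8 pairs, while Cdkn1b and Cdkn1c did not. In the fit without the pairs none of the 3 genes was called, and Cdkn1a was called in both genotypes with them.

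Cdkn1a (ENSMUSG00000023067, chr17:29090976-29100727, plus strand) encodes p21, the inhibitor that p53 switches on after DNA damage. Its level was 18.4, 28.9, 55.5 and 42.6 CPM in MPP3 WT and 25.1, 52.9, 80.8 and 71.3 CPM in MPP4 WT. The KO libraries had 48.1, 35.6, 58.2 and 33.2 CPM in MPP3 and 90.8, 64.5, 74.8 and 43.7 CPM in MPP4. The spread within a group was as wide as the gap between groups, yet a library low in MPP3 was low in its MPP4 partner. For Cdkn1a the log2 fold change was -0.66 ± 0.35 in WT (edgeR FDR 0.298) and -0.64 ± 0.35 in KO (edgeR FDR 0.276). With the pairs as a block the values were -0.65 ± 0.11 (edgeR quasi-likelihood FDR 0.000744) and -0.63 ± 0.11 (FDR 0.000756). Over the pairs the difference ran from -0.87 to -0.45 in WT and from -0.91 to -0.36 in KO. Library 1 of WT was the lowest in both populations, and without MPP4 WT library 1 the unpaired value in WT was -0.91 (edgeR FDR 0.0850).

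For reference, the stretch before the upstream start of Cdkn1a (chr17:29090729-29090978, plus strand, GRCm38.p6 in RefSeq) is given with its p53-type motif in capitals, since p53 is the best known regulator of this gene. The motif begins 48 bases before the start, and 161 of 32851 promoters (0.490%) hold it. Of the 7 genes with an entry, Cdkn1a alone held it, at this start and not at its downstream start.
Cdkn1a: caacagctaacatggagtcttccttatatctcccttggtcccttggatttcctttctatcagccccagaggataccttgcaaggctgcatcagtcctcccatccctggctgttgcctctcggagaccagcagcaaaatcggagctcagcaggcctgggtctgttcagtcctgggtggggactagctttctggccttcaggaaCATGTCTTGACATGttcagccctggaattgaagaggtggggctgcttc

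Cdkn1b (ENSMUSG00000003031, chr6:134920401-134925513, plus strand) encodes p27, which accumulates in resting cells and is controlled largely by degradation of the protein. Its level was 12.5, 12.4, 15.7 and 17.1 CPM in MPP3 WT and 12.2, 11.8, 15.99 and 14.9 CPM in MPP4 WT. KO libraries had 15.9, 9.43, 20.6 and 13.5 CPM in MPP3 and 17.1, 8.52, 17.3 and 13.7 CPM in MPP4. The groups overlapped almost fully, and MPP3 was higher in 5 of 8 pairs. The log2 fold change was 0.07 ± 0.24 in WT (95% interval -0.43 to 0.58) and 0.07 ± 0.24 in KO (-0.44 to 0.57), which leaves room for a difference of either sign.

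Cdkn1c (ENSMUSG00000037664, chr7:143458339-143461050, minus strand) encodes p57, the inhibitor tied to quiescence of blood stem cells, and is imprinted. It had the fewest counts of the 10 genes, from 16 to 171 in a library. Its level was 1.17, 3.23, 2.62 and 3.06 CPM in MPP3 WT and 0.378, 0.643, 2.35 and 3.62 CPM in MPP4 WT. KO libraries had 3.66, 2.92, 2.49 and 1.99 CPM in MPP3 and 2.85, 4.58, 2.704 and 1.97 CPM in MPP4. Libraries 1 and 2 of MPP4 WT were the lowest, and the other groups overlapped. Fitted log2 fold changes were 0.52 ± 0.54 in WT and -0.13 ± 0.54 in KO, and 95% intervals reached from -0.63 to 1.67 and from -1.27 to 1.01. A change of 2-fold was thus not detectable at this depth and spread.

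In the imprinted domain of Cdkn1c, 9 of 13 neighbouring genes were tested. Phlda2, which encodes a small protein known for restraining placental growth, passed the filter on low counts through MPP3 alone, so its direction was set by the filter, and it is left out of the counts. Its level was 6.02 ± 2.04 CPM in MPP3 WT and 1.11 ± 0.511 CPM in MPP4 WT. Of the other 8 genes, 1 was called higher in MPP3 in WT and 3 in KO, beside 6.80% and 8.71% of all genes tested, and none lower. Tspan32, a tetraspanin of blood cells, was at 397 ± 21.9 and 349 ± 17.6 CPM (0.19 ± 0.06, FDR 0.0453 by edgeR), and was not called in WT without both libraries numbered WT 1 (edgeR FDR 0.109). The call of Tspan32 in WT held under 20 of 25 alternatives, among them 13 of 16 that left out a library (highest edgeR FDR 0.153). The median log2 fold change of the 8 genes was 0.09 in WT and 0.15 in KO, beside -0.00 and -0.01 over all genes tested.

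The INK4 inhibitors present were Cdkn2d and Cdkn2c, and neither was called between the populations without the pairs. Cdkn2a was counted at most 5 times in any library and Cdkn2b not at all, which allows up to 3 counts by counting error alone. Reads carried no molecular identifiers, so such limits cover counting error only.

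Cdkn2d (ENSMUSG00000096472, chr9:21288410-21291407, minus strand) encodes p19INK4d, an INK4 protein of differentiating and quiescent cells. Its level was 81.1, 76.5, 73.3 and 76.4 CPM in MPP3 WT and 73.0, 66.0, 71.3 and 81.1 CPM in MPP4 WT. In KO it was 71.7, 71.4, 85.6 and 81.8 CPM in MPP3 and 48.1, 73.9, 74.2 and 70.9 CPM in MPP4. The groups overlapped, and library 1 of MPP4 KO stood well below all others. For Cdkn2d the log2 fold change was 0.08 ± 0.12 in WT (edgeR FDR 0.790) and 0.22 ± 0.12 in KO (edgeR FDR 0.272), and with the pairs as a block it was called in KO (0.23 ± 0.09, edgeR FDR 0.0883). Without MPP4 KO library 1 the unpaired value of Cdkn2d in KO was 0.09 (edgeR FDR 0.615). It made up between 78.6% and 84.8% of the INK4 sum per length by the group means.

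Cdkn2c (ENSMUSG00000028551, chr4:109660876-109667189, minus strand) encodes p18INK4c, which restrains self-renewal of blood stem cells. Its level was 9.42, 24.3, 31.9 and 41.3 CPM in MPP3 WT and 9.32, 20.2, 39.9 and 37.7 CPM in MPP4 WT. Among KO libraries it was 22.3, 23.1, 27.6 and 22.1 CPM in MPP3 and 26.0, 34.1, 38.7 and 24.6 CPM in MPP4. The WT libraries spread widely, over nearly the same range in both populations, and the KO libraries lay inside it. The fold change on the log2 scale was -0.00 ± 0.40 in WT and -0.38 ± 0.40 in KO (edgeR FDR 0.637). With the pairs as a block Cdkn2c was called in KO (-0.36 ± 0.12, edgeR FDR 0.0423), where MPP4 was higher in all 4 pairs, and not in WT (0.02 ± 0.12, edgeR FDR 0.935). The difference between those paired effects was -0.38 ± 0.17 (interaction with the pairs as a block, edgeR FDR 0.816) and was not called.

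The inhibitors that varied most among replicates were Cdkn1c, Cdkn2c and Cdkn1a. Their SDs within groups were 0.856, 0.695 and 0.590 on the log2 scale, larger than in 97.0%, 94.9% and 92.5% of the genes tested. In each of the 3 genes library 1 of WT was the lowest of its group in both populations. Taking the pairs as a block, 5 of the 10 genes were called in WT (24.8% of all genes tested) and 7 in KO (28.3%). Of the 10 genes, 4 were higher in MPP4 and 2 higher in MPP3 in every pair. In all, 6 of the 10 genes differed in the same direction in all 8 pairs, as did 21.6% of all genes tested (35.1% in all 4 pairs of WT and 40.3% in those of KO). The groups did not overlap for 2 of the 10 genes in WT (15.9% of all genes tested) and 4 in KO (17.2%). Without both libraries numbered WT 1, 3 of the 10 genes were called in WT (12.7% of all genes tested) and 4 in KO (18.5%), and DESeq2 called 3 (16.6%) and 4 (19.7%).

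**Figure D4:**
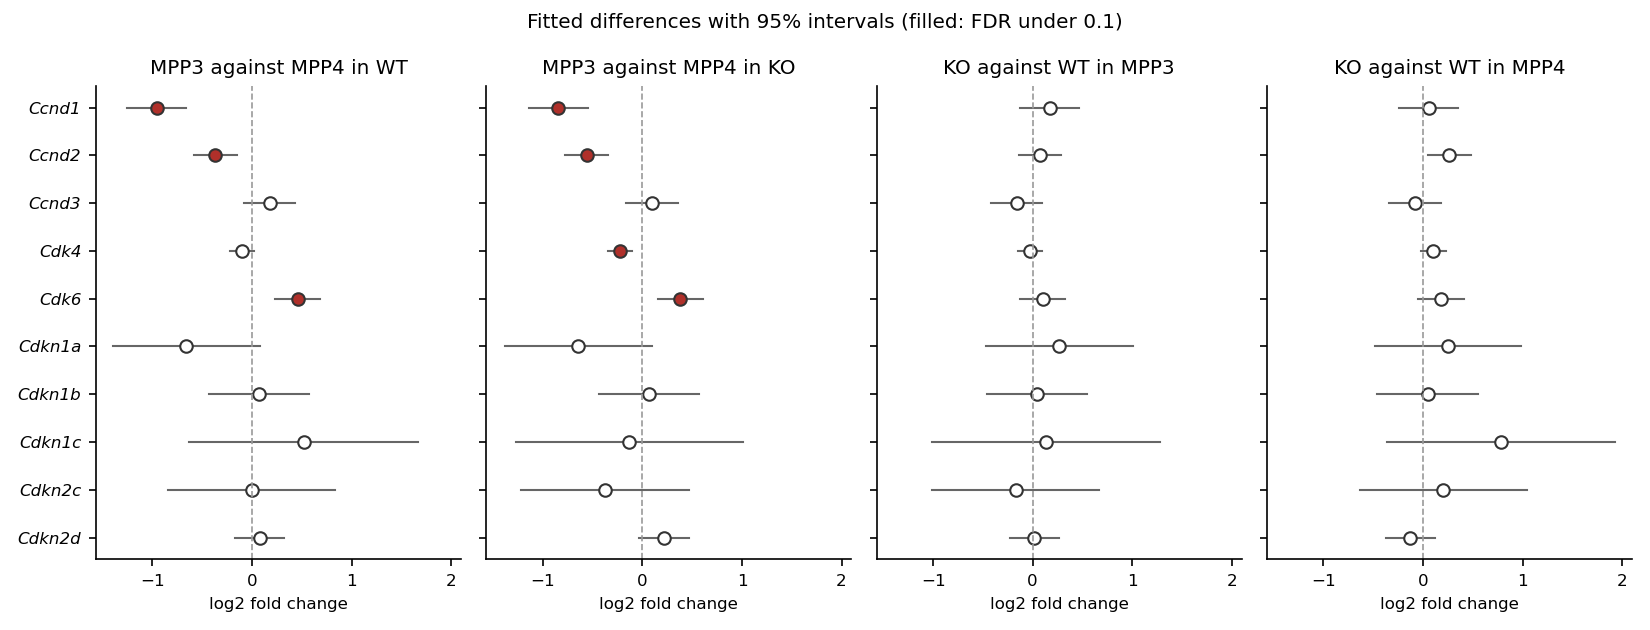
Fitted log2 fold changes of the 10 genes with 95% intervals in 4 comparisons of 4 against 4 libraries, without the pairs; filled points passed an FDR of 0.1. Ccnd1 and Ccnd2 lie below 0 and Cdk6 above 0 for MPP3 over MPP4 in both genotypes, Cdk4 is filled in KO, and no point is filled for KO over WT.

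Markers of other cells moved with the populations and are given beside these results. The 5 mast cell and basophil markers had a summed level of 168 to 299 CPM in MPP3 WT and 19.2 to 28.6 CPM in MPP4 WT, and both markers that passed the filter in both populations were called higher in MPP3 in WT and KO. The 7 stem cell markers summed to 474 to 570.1 CPM in MPP3 WT and 252 to 333 CPM in MPP4 WT, and of 4 that passed in both populations 2 were called higher in MPP3 in WT and 4 in KO. The 4 megakaryocyte markers summed to 122 to 127 CPM in MPP3 WT and 20.5 to 26.98 CPM in MPP4 WT, and of 2 that passed in both populations 1 was called higher in MPP3 in WT and 2 in KO. Every megakaryocyte, mast cell and stem cell sum in MPP3 WT lay above those in MPP4 WT. The 5 erythroid markers summed to 16.8 to 55.6 CPM in MPP3 WT and 10.96 to 33.2 CPM in MPP4 WT, with overlapping ranges. In KO these sums were 14.4 to 30.8 CPM in MPP3 and 6.91 to 61.0 CPM in MPP4, also overlapping. Klf1 was called higher in MPP3 in KO (1.93 ± 0.53, edgeR FDR 0.0220). Hba-a1 (-0.53 ± 0.61, edgeR FDR 0.670) and Hbb-bs (-0.73 ± 0.77, edgeR FDR 0.637) had the other sign there and were not called. Neutrophil markers summed to 11.5 to 46.3 CPM in MPP3 WT and 1.48 to 8.42 CPM in MPP4 WT, and T cell markers to 1.85 to 3.73 and 6.35 to 8.87 CPM. None of these neutrophil and T cell markers passed the filter in both populations. Among the T cell markers only Cd247 was tested, and it passed through MPP4 alone. The highest counts in a library of MPP3 WT and of MPP4 WT were 36 and 9 for Cd3e, 32 and 21 for Trac, and 23 and 30 for Cd3g. The 5 plasma cell markers summed to 40.3 to 145 CPM in MPP3 WT and 66.7 to 145 CPM in MPP4 WT, with overlapping ranges. Only Sdc1 of these passed the filter in both populations, and it was called lower in MPP3 in both genotypes (-3.71 ± 0.36 in WT, edgeR FDR 2.78e-06). Jchain passed through MPP3 alone and stood at 5.17 ± 1.47 in WT. Mzb1 passed through MPP4 alone and stood at -0.46 ± 0.68 in WT. The part of all these markers in the differences of the cyclins and kinases was not tested.

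Genes downstream of the D cyclin kinases were then read from lists of cell cycle genes. The clearest difference lay in genes of G2 and M phase, which were lower in MPP3. Of 21 such genes, 15 were called lower in MPP3 in WT and 17 in KO, beside 8.33% and 9.18% of all genes tested, and none higher, with medians of -0.36 and -0.39 on the log2 scale. Ube2c, which encodes the ubiquitin-conjugating enzyme of the anaphase-promoting complex, was at 123 ± 13.5 CPM in MPP3 WT and 176 ± 9.32 CPM in MPP4 WT (log2 fold change -0.52 ± 0.09, edgeR quasi-likelihood FDR 0.00127). Top2a, which encodes the topoisomerase that untangles chromosomes, was at 510.4 ± 33.1 and 664 ± 45.0 CPM (-0.38 ± 0.07, FDR 0.00140 by edgeR). Without both libraries numbered WT 1 the counts were 13 and 18, beside 7.37% and 9.40% of all genes.

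Few genes of S phase were called. Of 20, none was called in WT and 1 in KO, beside 15.1% and 17.9% of all genes tested. It was Gins2 of the replicative helicase, which was at 79.0 ± 10.5 CPM in MPP3 KO and 99.3 ± 9.30 CPM in MPP4 KO (-0.33 ± 0.10, edgeR FDR 0.0371), a call lost in 2 of 16 fits that left out a library (highest edgeR FDR 0.130). The medians of the list were 0.02 and -0.05. Of the 8 genes tested of the cyclin E and A arm, 1 was called in each direction in both genotypes, beside the same shares of all genes. Ccna2, which encodes cyclin A of S and G2 phase, was lower in MPP3 (-0.42 ± 0.09 in WT, edgeR FDR 0.00367). Ccnh, a subunit of the kinase that activates CDKs, was higher (0.20 ± 0.07, edgeR FDR 0.0793). The call of Ccnh in WT was lost under 9 of 25 alternatives, among them 6 of 16 that left out a library (highest edgeR FDR 0.175), and the fit without both libraries numbered WT 1 (edgeR FDR 0.138).

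Of 13 pocket protein and E2F genes, 1 was called in WT and 2 in KO, beside 15.1% and 17.9% of all genes tested. E2f2, an activating E2F, was lower in MPP3 in WT (16.5 ± 3.72 against 23.3 ± 0.541 CPM, -0.50 ± 0.16, edgeR FDR 0.0465) and in KO (-0.78 ± 0.16, edgeR FDR 0.00236). In WT the call of E2f2 was lost in 2 of 16 fits that left out a library (highest edgeR FDR 0.136). Rbl2, which encodes the pocket protein p130 of resting cells, was higher in MPP3 in KO (0.26 ± 0.09, edgeR FDR 0.0738) and was at 0.09 ± 0.09 in WT (edgeR FDR 0.657). The call of Rbl2 in KO was lost under 8 of 25 alternatives, among them 6 of 16 that left out a library (highest edgeR FDR 0.198). Of 11 genes for the turnover of D cyclins and p27, none was called in WT and 1 in KO, beside 15.1% and 17.9% of all genes tested. That gene was Ambra1, the adaptor that directs D cyclins to degradation, at 18.1 ± 1.17 CPM in MPP3 KO and 26.5 ± 3.68 CPM in MPP4 KO (-0.55 ± 0.15, edgeR FDR 0.0247).

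Of 14 tested genes of p53 and its targets, 12 passed the filter on low counts in both populations. Of these 12, 2 were called lower in MPP3 in each genotype, beside 8.33% of all genes in WT and 9.18% in KO, and none higher. Phlda3, a repressor of AKT, was lower in MPP3, at 6.73 ± 1.37 CPM in MPP3 WT and 23.7 ± 6.19 CPM in MPP4 WT (-1.81 ± 0.26, edgeR quasi-likelihood FDR 0.000128). Sesn1, a stress-induced regulator of growth signalling, was also lower (-0.66 ± 0.07 in WT, edgeR FDR 3.29e-06). Perp, a membrane protein of cell junctions and cell death, passed the filter through MPP3 alone and was at 6.79 ± 2.31 CPM in MPP3 WT and 1.38 ± 0.572 CPM in MPP4 WT. None of the 3 FoxO genes was called.

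**Figure D5:**
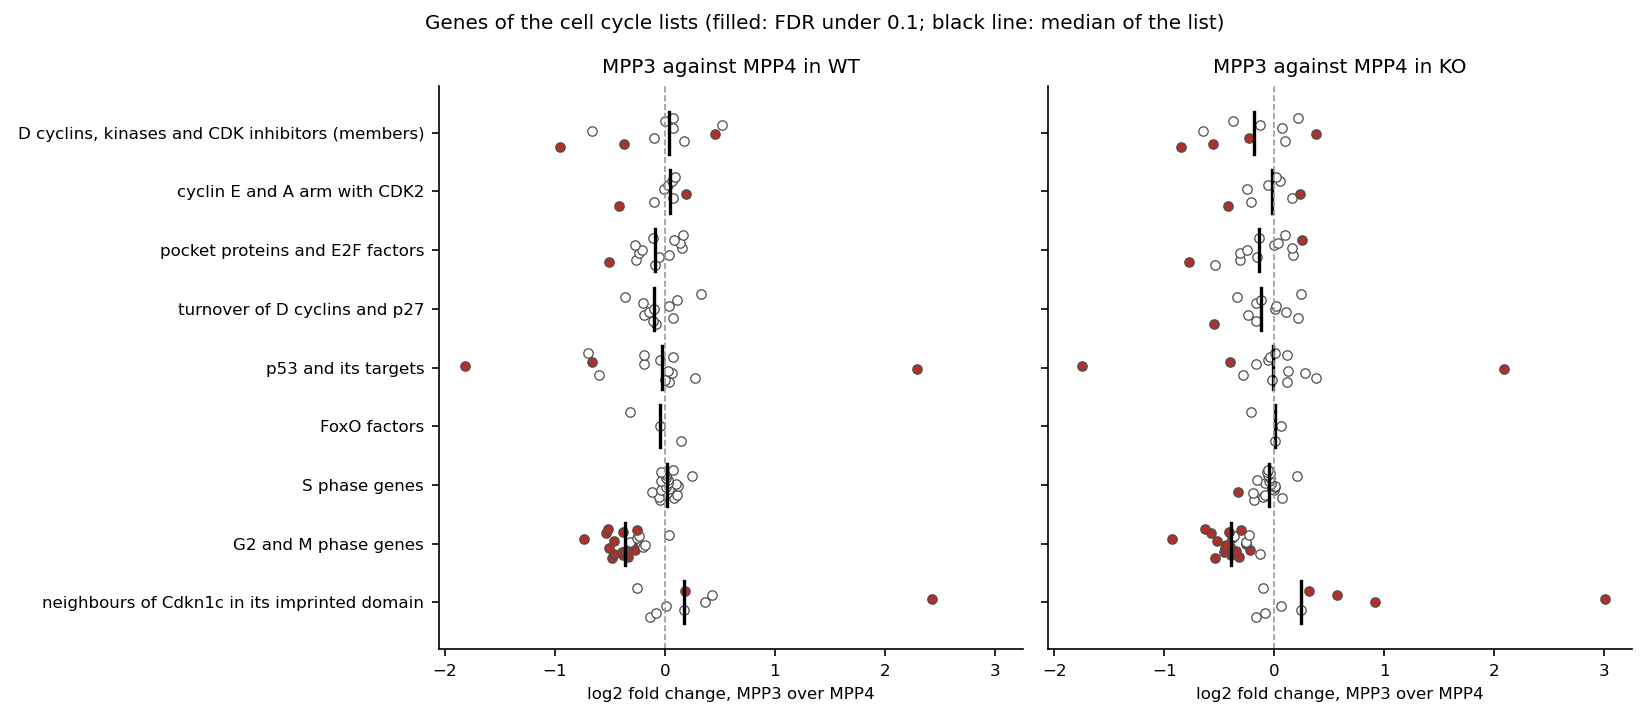
Log2 fold changes of MPP3 over MPP4 for every tested gene of the cell cycle lists, in WT and KO; filled points passed an FDR of 0.1 and black lines are list medians. Most points of the G2 and M phase list lie left of 0 (20 of 21 in WT, with 15 called lower in WT and 17 in KO), and those of the S phase list lie around 0. Zmat3, Perp and Phlda2, which passed the filter on low counts through 1 population only, are included.

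For each gene called in both genotypes, the 3 genes with the closest pattern were found by the root-mean-square difference of centred log2 CPM over the 16 libraries. For Ccnd1 they were Tle3 at 0.161, Haao at 0.161 and Lsp1 at 0.165, beside 0.487 for the variation of Ccnd1 itself. For Ccnd2 they were Slc25a12 at 0.0970, Slc29a1 at 0.127 and Gm9844 at 0.137, beside 0.286. For Cdk6 they were Fam117a at 0.122, Atp6ap2 at 0.126 and Cd48 at 0.132, beside 0.266. These values are descriptions over 16 libraries that fall into 8 pairs.

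The study's central comparison was between the genotypes, to ask how loss of Ebf1 changes each population. None of the 10 genes was called for KO against WT in MPP3, where 8 of all genes tested were called (0.0676%), or in MPP4, where 2 were called (0.0169%). At an unadjusted p under 0.05, 0 of the 10 genes passed in MPP3 and 1 in MPP4 (edgeR), beside 10.5% and 12.8% of all genes tested, and the groups did not overlap for 0 of the 10 genes in either population (4.58% and 7.27% of all genes tested). The block called 0 of the 10 (0.245% and 0.194% of all genes tested), as did the fit without both libraries numbered WT 1 (0.0676% and 0.0338%) and DESeq2 (1.82% and 2.58%). DESeq2 gave no adjusted p for Cdkn1c in MPP4.

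The gene nearest to a call was Ccnd2 in MPP4, at 650.4 ± 87.0 CPM in WT and 782 ± 41.5 CPM in KO. Only library 2 of WT, at 743 CPM, lay within the KO range. The log2 fold change was 0.27 ± 0.10, with a 95% interval of 0.05 to 0.48 and an edgeR quasi-likelihood FDR of 0.279. With age as a term it was 0.10 (edgeR FDR 0.825), and the KO mice were the younger group. In MPP3 Ccnd2 was at 504 ± 61.3 CPM in WT and 530.5 ± 54.7 CPM in KO (0.07 ± 0.10).

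For the well-counted members the intervals were narrow. In MPP3 the 95% interval for KO over WT was -0.14 to 0.10 for Cdk4, -0.13 to 0.33 for Cdk6, -0.23 to 0.26 for Cdkn2d and -0.42 to 0.10 for Ccnd3. In MPP4 it was -0.02 to 0.23 for Cdk4, -0.05 to 0.41 for Cdk6, -0.37 to 0.12 for Cdkn2d and -0.34 to 0.18 for Ccnd3. A change of 2-fold, which is 1 on this scale, lay outside all of these. For Ccnd1 the interval was -0.13 to 0.47 in MPP3 and -0.24 to 0.35 in MPP4.

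For the variable inhibitors the intervals were wide. The log2 fold change of Cdkn1a was 0.27 ± 0.35 in MPP3 (95% interval -0.47 to 1.01) and 0.25 ± 0.35 in MPP4 (-0.48 to 0.99). Without both libraries numbered WT 1 these were 0.05 and 0.00. That of Cdkn2c was -0.17 ± 0.40 in MPP3 (-1.01 to 0.67) and 0.20 ± 0.40 in MPP4 (-0.64 to 1.04). Cdkn1b stood at 0.04 ± 0.24 and 0.05 ± 0.24. Cdkn1c was at 0.13 ± 0.54 in MPP3 and 0.78 ± 0.54 in MPP4 (-0.37 to 1.93), and at 0.45 in MPP4 without both libraries numbered WT 1. Whether these inhibitors differ between the genotypes could not be resolved with 4 libraries a group.

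In the main edgeR fit and the edgeR fit with the block, no list of the pathway had a gene called between the genotypes in either population. Of 109 genes tested in these lists, the 10 included, DESeq2 called 1 in MPP3 (0.917%) and 2 in MPP4 (1.83%), beside 1.82% and 2.58% of all genes tested. Ambra1 was at 18.1 ± 1.17 CPM in MPP3 KO and 29.1 ± 6.98 CPM in MPP3 WT (-0.68 ± 0.15, edgeR FDR 0.147). It was called under 4 of 25 alternatives, which were DESeq2 (FDR 0.00916), sex as a term (edgeR FDR 0.0998) and 2 fits that left out a library (lowest edgeR FDR 0.0607). Cdc25a, a phosphatase that activates CDK2, was higher in MPP4 KO (DESeq2 log2 fold change 0.54, FDR 0.0285, and edgeR FDR 0.179), and edgeR called it with sex as a term (FDR 0.08001) and in 1 of 16 fits that left out a library (FDR 0.0936). Foxo3, a transcription factor of quiescent stem cells, was lower there (DESeq2 log2 fold change -0.29, FDR 0.0760, and edgeR FDR 0.187). The interaction of genotype and population called 0 of the 10 genes and 0 of all genes (270, or 2.28%, at an unadjusted p under 0.05 by edgeR, and 8 genes by DESeq2). The 5 plasma cell markers, none of which was called between the genotypes by edgeR (Mzb1 by DESeq2 in MPP3), had a sum in MPP3 of 40.3 to 145 CPM in WT and 5.68 to 32.2 CPM in KO. The sum of stem cell markers was 401 to 461 CPM in MPP3 KO and 171 to 234 CPM in MPP4 KO, below the WT range of each population. The 6 genes of the sort gate summed to 3311 to 3562 CPM in MPP4 KO and 3712 to 4122 CPM in MPP4 WT. Kit, the receptor used in the sort, was called lower in MPP4 KO (408 ± 23.1 against 547 ± 36.0 CPM, -0.42 ± 0.07, edgeR FDR 0.0560), a call lost under 6 of 25 alternatives. Ly6a, which encodes Sca-1 of the same gate, was at 66.7 ± 10.4 CPM in MPP4 KO and 49.3 ± 2.08 CPM in MPP4 WT (0.44 ± 0.13, edgeR FDR 0.193, DESeq2 FDR 0.0618). In MPP3 Ly6a was at 41.7 ± 7.37 CPM in KO and 30.3 ± 2.51 CPM in WT (0.46 ± 0.13, edgeR FDR 0.195, DESeq2 FDR 0.0506). Their part in the values above was not tested.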

How the data were processed

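Read counts per gene were deposited by the authors as raw counts for 16 libraries, 4 in each of 4 groups, with no normalisation. Per the labels and the submitters' processing notes, paired-end reads were aligned to mm10 with STAR 2.7.3a and counted with featureCounts 2.0.0. The annotation release and the use of strand are not given in the sources used here. A table of normalised values was not used here. Names and coordinates came from GENCODE for GRCm38 (47224 of 47937 identifiers matched).

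The 11831 genes whose mean passed 100 counts in at least 1 group entered an edgeR 4.0.16 quasi-likelihood fit (R 4.3.3, TMM) of all libraries, with no covariate. Genes with a Benjamini-Hochberg FDR under 0.1 were called. Intervals are 95%. CPM uses TMM-scaled library sizes, and lengths are the union of annotated exons. Alternatives were RLE, DESeq2 1.42.0, other filters, sex or age as a term, fewer libraries and a replicate block. Deviations of same-numbered MPP3 and MPP4 libraries correlated at 0.274 to 0.492 in WT and 0.391 to 0.528 in KO, and those of other numbers reached 0.291 and 0.0831. Each MPP3 library correlated best with the MPP4 library of its own number. The fit was tested on simulated data. The members and lists were chosen with earlier results of these data known. Named were all 10 genes, the called genes of each list with the 2 smallest p-values a direction in WT (1 in every other comparison), and the 3 closest patterns of each gene called in both genotypes. Totals ran from 24823708 to 48703193 counts, and the spread between replicates enters every SE.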

Additional observations from a re-analysis of the deposited data

Results flagged for a closer look

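In 40 groups of 4 libraries (10 genes in 4 groups), 2 held a library whose gap to the nearest other library took a larger part of the group's range than Dixon's 95% critical value. Chance flags about 1 in 20 such groups. The first was Ccnd2 in MPP3 KO, where library 2 was at 612 CPM and the others at 494 to 509 CPM, a gap of 0.874 of the range. The same mouse number gave the highest MPP4 KO value as well. The second was Cdkn2d in MPP4 KO, where library 1 was at 48.1 CPM and the others at 70.9 to 74.2 CPM, a gap of 0.875 of the range. Its MPP3 partner was at 71.7 CPM, inside the range of its group.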

How the results depend on the processing

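Of 1240 values of the 10 genes under the alternatives, 1172 kept direction and side of the threshold, 7 became called and 61 changed sign, all of them uncalled. The calls of Ccnd1, Ccnd2 and Cdk6 in both genotypes and of Cdk4 in KO held under every alternative run. With the replicate block 5 members were called in WT and 7 in KO, and genes called numbered 2930 and 3346. For KO against WT the numbers do not pair the mice (correlations of -0.44 to 0.06), and the block gave 29 genes in MPP3 and 23 in MPP4, 2 for the interaction, and no member. DESeq2 called 215 and 305 genes for KO against WT and 8 for the interaction, sex as a term gave 58 and 183, age as a term 1 and 1, 1 population alone 1 and 20, and both WT 1 libraries left out 4 in MPP4. Leaving out a library gave 1 to 137 genes in MPP3 (137 without WT 3) and 1 to 41 in MPP4 (41 without KO 4), and 0 to 1 for the interaction. The causes were not tested. Depth limits Cdkn1c, with 16 to 171 counts.

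Signs changed as follows, on the log2 scale. Cdkn2c in MPP3 against MPP4 in WT was 0.00408 by DESeq2, 0.00423 with RLE size factors, 0.00116 without both WT 1 libraries, 0.0193 with the replicate block and 0.0206 with sex as a term. For KO against WT in MPP3, age gave -0.10 for Ccnd1, -0.10 for Ccnd2 and -0.40 for Cdkn1c, and leaving out WT 1 gave -0.0209 for Cdkn1b and -0.10 for Cdkn1c. In MPP4, age gave -0.20 for Ccnd1, and leaving out WT 1 gave -0.00551 for Cdkn1b and -0.0813 for Cdkn2c. For the interaction Cdkn1b was 0.00176 with filterByExpr and 0.0144 with no filter. Leaving out single libraries gave these ranges for KO against WT in MPP3: Cdk4 -0.0492 to 0.00833, Cdkn1b -0.16 to 0.21, Cdkn1c -0.10 to 0.27, Cdkn2c -0.45 to 0.12 and Cdkn2d -0.0353 to 0.0577. In MPP4 they were Ccnd1 -0.0614 to 0.14, Cdkn1b -0.0640 to 0.23, Cdkn2c -0.0808 to 0.46 and Cdkn2d -0.18 to 0.00270. For MPP3 against MPP4 they were Cdkn1b -0.13 to 0.24 and Cdkn1c -0.30 to 0.14 in KO, and Cdkn1b -0.0202 to 0.15 and Cdkn2c -0.29 to 0.28 in WT. For the interaction they were Ccnd1 -0.0133 to 0.23, Ccnd3 -0.18 to 0.0514, Cdkn1a -0.20 to 0.30 and Cdkn1b -0.20 to 0.16.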
